A study of Mus musculus with 2 samples.

Results

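The genes described here are 10 components of neurotransmitter release, the synaptotagmin genes Syt1, Syt2, Syt4, Syt6, Syt7 and Syt10, the synaptic vesicle glycoprotein 2 genes Sv2a, Sv2b and Sv2c, and the SNARE gene Snap25. They were taken by symbol from the gene list that both libraries share, and all 10 of 10 symbols were found among its 55357 genes. The data are 2 single-nucleus RNA libraries of mouse hippocampus. The mice of the first, labelled Bcas2 knockdown, carried floxed alleles (Bcas2F/F) and had received AAV2/9-Syn-cre, a viral vector in which the neuronal synapsin promoter drives Cre. The mice of the second, the control, had received the AAV vehicle. Its title gives Bcas2F/F mice and its genotype label WT, and the labels do not settle which holds. The numbers, ages and sexes of the mice are not given in the labels. With 1 library per group there is no replicate, so no test was made, and every interval covers counting error only.

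Synaptic vesicles fuse when the vesicle SNARE protein pairs with SNAP-25 and syntaxin on the plasma membrane, and synaptotagmins supply the calcium trigger. Synaptotagmin-1 and synaptotagmin-2 are fast vesicle sensors, synaptotagmin-7 is a slower, high-affinity sensor tied to asynchronous release and facilitation, and synaptotagmin-4 and synaptotagmin-10 have been linked to dense-core and growth factor vesicles. SV2 proteins are vesicle membrane glycoproteins related to transporters that bind synaptotagmin-1, and SV2A is the binding site of the antiseizure drug levetiracetam. In the hippocampus these families are known for expression that differs between principal cells and types of interneuron.

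The 3 SV2 genes are paralogs whose levels by class are described first, so the 250 bases before an annotated start of each are shown. They are RefSeq windows of build GRCm38.p6, printed 5′ to 3′ on the strand of the gene, with capitals on matches to GGGCGG (the GC box) or TATAAA (the TATA motif) on either strand. The window of Sv2a is chr3:96180977-96181226 (plus strand), that of Sv2b chr7:75309263-75309512 (minus strand, the most upstream of 4 annotated starts) and that of Sv2c chr13:96132578-96132827 (minus strand).
Sv2a: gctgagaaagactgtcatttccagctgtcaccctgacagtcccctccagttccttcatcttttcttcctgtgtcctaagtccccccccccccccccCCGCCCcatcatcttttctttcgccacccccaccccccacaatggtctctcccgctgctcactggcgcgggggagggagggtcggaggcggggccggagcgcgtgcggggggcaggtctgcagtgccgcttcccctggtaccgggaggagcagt
Sv2b: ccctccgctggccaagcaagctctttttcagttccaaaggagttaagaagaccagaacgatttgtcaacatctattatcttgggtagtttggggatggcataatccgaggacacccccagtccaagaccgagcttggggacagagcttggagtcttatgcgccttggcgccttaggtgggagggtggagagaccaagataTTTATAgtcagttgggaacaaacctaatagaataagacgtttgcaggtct
Sv2c: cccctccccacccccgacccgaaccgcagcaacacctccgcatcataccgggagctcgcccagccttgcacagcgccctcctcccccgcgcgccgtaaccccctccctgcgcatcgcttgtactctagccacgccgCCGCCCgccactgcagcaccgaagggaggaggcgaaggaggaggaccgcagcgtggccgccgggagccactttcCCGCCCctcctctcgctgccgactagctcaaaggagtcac
GC content was 66.0% in the Sv2a window, 48.8% in the Sv2b window and 70.8% in the Sv2c window, against a mean of 53.2% over 32851 windows of the same length. The Sv2a and Sv2c windows held GGGCGG and not TATAAA, and the Sv2b window held TATAAA and not GGGCGG. Over all windows 32.7% held GGGCGG and 12.4% held TATAAA, on either strand. The other motifs searched, TGACGTCA, CACGTG and GGACAGC, were in none of the 3 windows printed, and in 1.55%, 6.02% and 5.28% of all windows. Such a match is a description of letters, and the 3' tags counted here do not tell which start was in use.

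The library labelled knockdown held 16693 barcodes and 90594923 UMIs (unique molecular identifiers), and the control 12621 barcodes and 41781481 UMIs. Of these, 12383 and 11196 nuclei were kept, with median depths of 5799 and 2485 UMIs, and 36 of the remaining barcodes occurred in both libraries. Both libraries held nuclei with Y-linked and nuclei with Xist UMIs, in unlike shares. A Y-linked and no Xist UMI was in 4774 nuclei of the library labelled knockdown and 3232 of the control. The reverse held for 3748 and 4788. Nuclei of named neuronal classes were 7056 (56.98%) in the library labelled knockdown and 935 (8.351%) in the control, so levels over whole libraries are not compared. Bcas2 itself, a splicing factor gene, stood at 34.0 CPM (the UMIs of the gene scaled to the summed UMIs of the class) in dentate granule-like nuclei (like granule neurons of the dentate gyrus, DG) of the library labelled knockdown and 33.9 CPM among the control ones, with 457 and 143 UMIs. These tags therefore do not show a loss, and a tag outside the floxed part checks nothing, so the library is named by its label. Classes carry names ending in "-like" because they rest on marker lists. All 11 DG granule markers were detected in the dentate granule-like cluster, 10 of 10 CA1 markers in the CA1-like one and 11 of 13 CA3 or CA2 markers in the CA3 or CA2-like one. Some other names rested on less, such as deep-layer-like with 9 of 12 markers detected. The 2 clusters joined as upper-layer or subicular-like had 5 and 10 of 12 markers detected. In a finer clustering (resolution 2) a cluster resembling the first of them took the CA1 name. The 486 CA3 or CA2-like nuclei of the library labelled knockdown stayed unnamed there. The control held only 20 CA1-like and 7 CA3 or CA2-like nuclei, and levels in those classes come from the library labelled knockdown.

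Sv2b was high in CA1-like, CA3 or CA2-like and cortical excitatory classes and low in dentate granule-like nuclei, while Sv2c was high in dentate granule-like nuclei and low in CA1-like and CA3 or CA2-like nuclei. Upper-layer or subicular-like nuclei held both genes as a class, with unlike levels in its 2 clusters. At clustering resolution 2, a cluster resembling the first held 104 CPM of Sv2b and 77.4 CPM of Sv2c (495 nuclei, library labelled knockdown). A cluster resembling the second held 342 and 11.6 CPM (436 nuclei), and its Sv2c interval overlapped that of oligodendrocyte-like nuclei. In the library labelled knockdown Sv2b stood at 414 CPM (95% Poisson interval 398 to 431) in deep-layer-like, 373 CPM (357 to 389) in CA3 or CA2-like, 287 CPM (276 to 299) in CA1-like and 239 CPM (229 to 250.2) in upper-layer or subicular-like nuclei. These 4 levels were separated from each other by more than counting error. Dentate granule-like nuclei held 21.4 CPM of Sv2b (19.0 to 24.1), and nuclei like interneurons of the medial (MGE) and caudal (CGE) ganglionic eminence held 20.5 and 19.9 CPM, and these 3 levels overlapped. The span from the highest to the lowest neuronal class was 20.8-fold for Sv2b. In the control, upper-layer or subicular-like nuclei held 307 CPM of Sv2b (268 to 351) and dentate granule-like nuclei 4.51 CPM (2.71 to 7.04).

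Sv2c stood at 94.6 CPM in dentate granule-like nuclei of the library labelled knockdown (89.5 to 99.95) and at 114 CPM in the control (104 to 125), above every other named class with at least 50 nuclei in its own library. The control also held 22 CGE interneuron-like nuclei, too few to compare, at 230.5 CPM (161 to 319). In the library labelled knockdown septal or subcortical GABAergic-like and CGE interneuron-like nuclei followed with 70.9 and 70.2 CPM, which overlapped. Upper-layer or subicular-like nuclei held 39.9 CPM of Sv2c (35.7 to 44.5) in the library labelled knockdown and 37.2 CPM (24.3 to 54.5) in the control, above the oligodendrocyte-like levels of 9.92 and 2.27 CPM. CA3 or CA2-like nuclei held 7.32 CPM (5.28 to 9.89) and CA1-like nuclei 5.57 CPM (4.09 to 7.40), at or below the 9.92 CPM (7.21 to 13.3) of oligodendrocyte-like nuclei of that library, which serve here as the background for a gene of neurons. With every nucleus thinned to 1000 UMIs, 8.41% of 2034 dentate granule-like nuclei of the library labelled knockdown had an Sv2c UMI (38.3% unthinned), against 9.47% of 549 in the control (45.5% unthinned). The share in CA1-like nuclei was 0.568% thinned (5.096% unthinned), and in oligodendrocyte-like nuclei of the same library 1.01% thinned (1.91% unthinned). Median depth before thinning was 6312 UMIs in dentate granule-like, 9219 in CA1-like and 1969 in oligodendrocyte-like nuclei of the library labelled knockdown.

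Sv2a, the family member found in most neurons, was spread more evenly. Its neuronal levels in the library labelled knockdown lay between 69.0 CPM (63.6 to 74.9) in CA1-like and 144.5 CPM (134.5 to 155) in MGE interneuron-like nuclei, a 2.09-fold span. Septal or subcortical GABAergic-like nuclei held 99.95 CPM in the library labelled knockdown and 108 CPM in the control. Dentate granule-like nuclei held 76.3 CPM in the library labelled knockdown and 63.3 CPM in the control. The levels of CGE interneuron-like and deep-layer-like nuclei, which stand next to each other in the order, overlapped at 115.5 and 109.8 CPM.

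**Figure D1:**
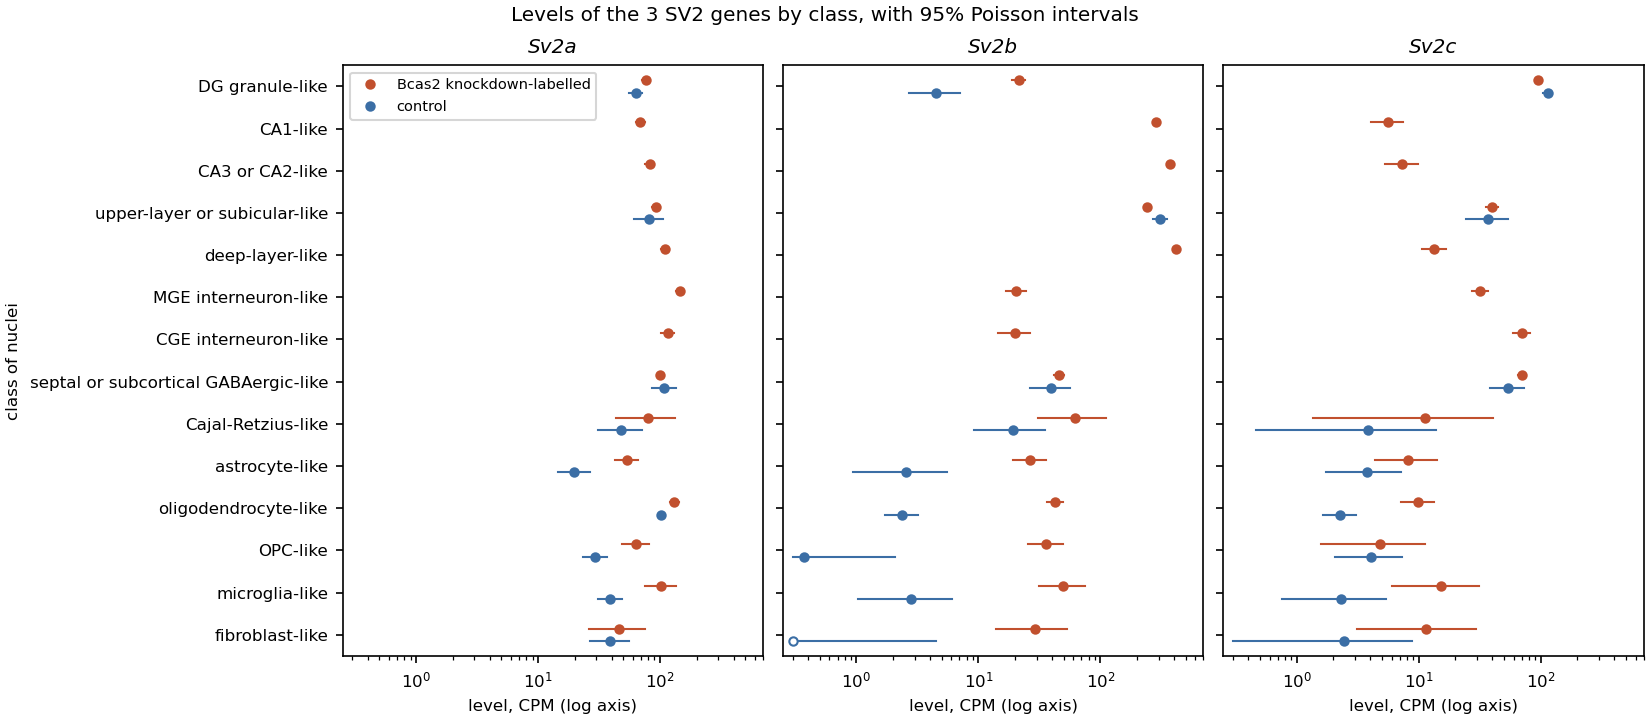
Level of Sv2a, Sv2b and Sv2c in CPM (log axis) by class of nuclei, knockdown-labelled library in red and control in blue, with 95% Poisson intervals; classes with under 50 nuclei in the control have no blue point, and an open point at the left edge is a level of 0. Sv2b is high in 4 excitatory classes and low in dentate granule-like nuclei, Sv2c is highest in dentate granule-like nuclei, and Sv2a varies least among neurons.

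The fast sensor Syt1 was present in every neuronal class with a 1.80-fold span. In the library labelled knockdown it stood at 3595 CPM in CA3 or CA2-like, 3534 CPM in deep-layer-like and 3446 CPM in MGE interneuron-like nuclei, with neighbours in this order overlapping. Dentate granule-like nuclei held 2584 CPM, Cajal-Retzius-like nuclei 1993 CPM, and both were separated from their neighbours by more than counting error. In the control the order was upper-layer or subicular-like (3287 CPM), dentate granule-like (2669 CPM), septal or subcortical GABAergic-like (2203 CPM) and Cajal-Retzius-like (1738 CPM), each separated from the next. The first of these was also above the other 3 in the library labelled knockdown, while there septal or subcortical GABAergic-like nuclei (2753 CPM) were above dentate granule-like ones.

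Snap25, the plasma membrane SNARE, followed a similar course with a 1.97-fold span. Deep-layer-like (1421 CPM) and upper-layer or subicular-like nuclei (1403 CPM) were highest in the library labelled knockdown and overlapped, and CA1-like (785 CPM) and Cajal-Retzius-like nuclei (723 CPM) were lowest among neurons and overlapped too. In the control, Snap25 stood at 1321 CPM in upper-layer or subicular-like, 983 CPM in septal or subcortical GABAergic-like, 855.8 CPM in dentate granule-like and 550.0 CPM in Cajal-Retzius-like nuclei. The same 4 classes stood in this order in the library labelled knockdown.

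Syt7, the slow sensor, was highest in dentate granule-like nuclei of either library, with 365 CPM (355 to 375) in the library labelled knockdown and 342 CPM (325 to 360.1) in the control. Deep-layer-like nuclei came next at 251 CPM and CA3 or CA2-like nuclei at 206.5 CPM. It was lowest among neurons in MGE (102 CPM) and CGE interneuron-like nuclei (84.2 CPM), whose intervals overlapped, and the span over neuronal classes was 4.33-fold. Thinned to 1000 UMIs, 30.04% of dentate granule-like nuclei of the library labelled knockdown and 28.6% of those of the control held a Syt7 UMI (86.1% and 89.3% unthinned). The shares in oligodendrocyte-like nuclei were 5.19% and 1.399% thinned (10.3% and 3.02% unthinned), and those nuclei had a median of 1969 UMIs in the library labelled knockdown and 2321 in the control.

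Syt10, a sensor known from growth factor secretion in olfactory neurons, was also highest in dentate granule-like nuclei among named classes with at least 50 nuclei. It stood at 72.2 CPM in dentate granule-like nuclei of the library labelled knockdown and 47.2 CPM (40.9 to 54.2) in those of the control, where it overlapped the 35.3 CPM (23.2 to 51.3) of septal or subcortical GABAergic-like nuclei. Deep-layer-like nuclei (51.1 CPM), septal or subcortical GABAergic-like nuclei (37.7 CPM) and upper-layer or subicular-like nuclei (37.2 CPM) followed in the library labelled knockdown, the last 2 overlapping. The CA3 or CA2-like, CA1-like and MGE interneuron-like levels, between 10.4 and 13.1 CPM, overlapped the 12.4 CPM of oligodendrocyte-like nuclei. CGE interneuron-like nuclei held 5.43 CPM. Outside the named classes, a cluster of resolution 2 led by Rarb, Foxp2 and Rgs9 (236 nuclei of the library labelled knockdown) held 82.5 CPM of Syt10 (69.9 to 96.7). Among the same named classes Syt4, an atypical isoform found on dense-core vesicles, was highest in upper-layer or subicular-like nuclei of either library. It stood there at 86.97 CPM in the library labelled knockdown and 87.2 CPM (66.7 to 112) in the control. In the control that level overlapped the 62.7 CPM (46.2 to 83.1) of septal or subcortical GABAergic-like nuclei. Syt4 was low in dentate granule-like nuclei, with 32.5 CPM in the library labelled knockdown and 24.7 CPM in the control, and 11 of the 14 classes of the library labelled knockdown lay between 32.5 and 58.3 CPM, glia included.

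**Figure D2:**
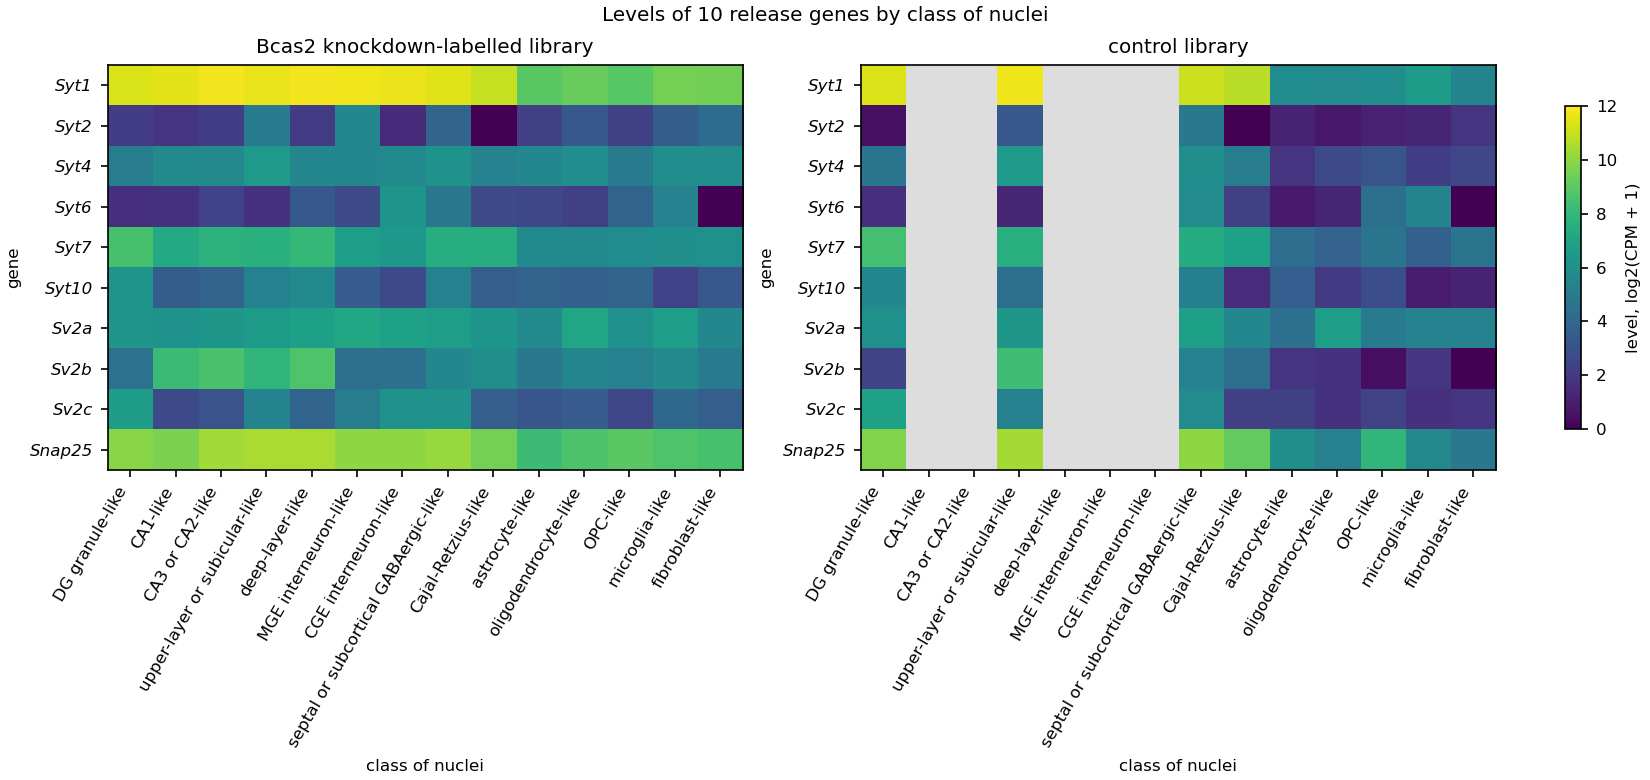
Level of the 10 genes as log2(CPM + 1) in each class with at least 50 nuclei, knockdown-labelled library left and control right (grey: fewer than 50 nuclei). Syt1 and Snap25 are present across neurons, Sv2b, Sv2c, Syt7 and Syt10 differ between dentate granule-like and CA1-like nuclei, and Syt2 and Syt6 are low in most neuronal classes; scales are comparable along a row, not between rows.

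Syt2 and Syt6 were low in most neuronal classes, and uneven within the interneuron classes. Syt2 is the fast sensor of parvalbumin interneurons. In the library labelled knockdown it stood at 45.4 CPM (39.9 to 51.5) in MGE interneuron-like nuclei, 30.5 CPM in upper-layer or subicular-like and 14.3 CPM (11.97 to 16.9) in septal or subcortical GABAergic-like nuclei. Fibroblast-like nuclei held 17.3 CPM (6.35 to 37.7, 6 UMIs) and microglia-like nuclei 10.8 CPM (3.50 to 25.2, 5 UMIs), so the septal or subcortical GABAergic-like level was not separated from them by counting error. CA1-like, CA3 or CA2-like, deep-layer-like, dentate granule-like and CGE interneuron-like nuclei held 1.81 to 3.66 CPM, below the 8.56 CPM (6.06 to 11.8) of oligodendrocyte-like nuclei. No Syt2 UMI was found in 67 Cajal-Retzius-like nuclei of the library labelled knockdown or in 162 of the control, where the 95% Poisson interval reaches 20.8 and 7.07 CPM. Divided by the presence of a marker UMI, a division chosen after the class levels were seen, 108 MGE interneuron-like nuclei with Pvalb and without Sst held 134 CPM of Syt2 (113 to 157). The 206 with Sst and without Pvalb held 7.90 CPM (4.42 to 13.03), and the 243 with neither held 30.5 CPM (23.5 to 38.97). The Sst group thus lay at the level of oligodendrocyte-like nuclei on the CPM scale. Syt2 was uneven in upper-layer or subicular-like nuclei too. The 2 clusters of resolution 2 that resemble its parts held 60.2 and 8.10 CPM in the library labelled knockdown.

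CGE interneuron-like nuclei divided in the same way by Sv2c and Syt6. The 66 nuclei with Lamp5 (a marker of neurogliaform cells) and without Vip held 222 CPM of Sv2c (185 to 265), the 97 with Vip and without Lamp5 held 6.44 CPM (1.75 to 16.5), and the 110 with neither 24.1 CPM (15.3 to 36.2). Syt6, an isoform known from acrosome exocytosis in sperm, stood at 139.5 CPM (117 to 165) in the nuclei with neither, 22.5 CPM (12.3 to 37.8) in those with Vip and 10.7 CPM (3.92 to 23.2) in those with Lamp5. Syt1 in these 3 groups stood at 3231 CPM with Lamp5, 2718 CPM with Vip and 3537 CPM with neither. In MGE interneuron-like nuclei, Sv2c was 63.9 CPM with neither Pvalb nor Sst, against 7.05 CPM with Pvalb and 12.6 CPM with Sst.

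The highest Syt6 level of any group stood outside the hippocampal classes. Cluster 18, with 305 nuclei of the library labelled knockdown and 68 of the control, stayed without a name because markers of islands of Calleja and of striatal neurons, which lie outside the hippocampus, were mixed in it. Its Syt6 level was 196 CPM in the library labelled knockdown and 532 CPM in the control. At clustering resolution 2 an islands of Calleja-like cluster of 66 and 52 nuclei separated, in which Syt6 was 875 CPM (756 to 1008) in the library labelled knockdown and 700.5 CPM (593 to 822) in the control. A cluster led by Rarb, Foxp2 and Rgs9, with 236 nuclei of the library labelled knockdown, held 116 CPM (101 to 132.5). The level of cluster 18 was thus lower in the library labelled knockdown, while that of the islands of Calleja-like nuclei was higher there. Both finer clusters were examined after the level of cluster 18 was seen. Sv2c was high in the same nuclei, with 308 CPM in the library labelled knockdown and 201 CPM in the control, while Syt7 was 31.7 and 14.0 CPM and no Syt2 UMI was found.

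**Figure D3:**
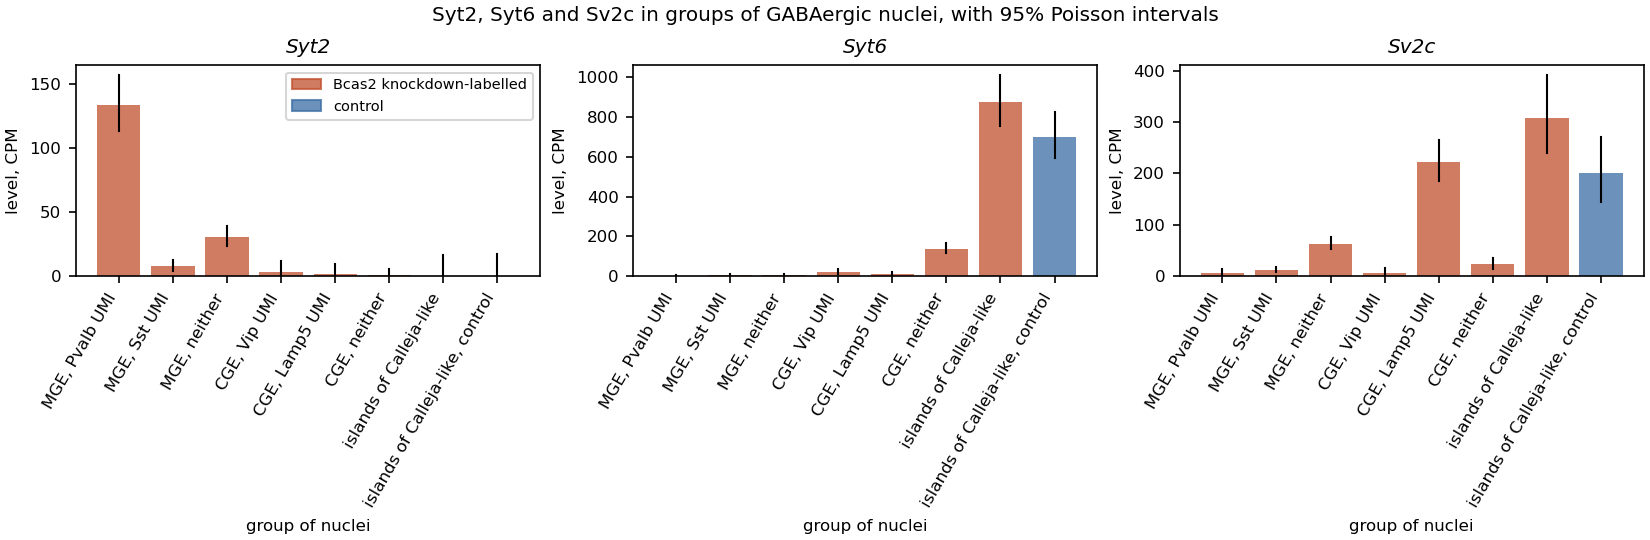
Level in CPM of Syt2, Syt6 and Sv2c in interneuron-like nuclei of the library labelled knockdown divided by a UMI of Pvalb, Sst, Vip or Lamp5, and in the islands of Calleja-like cluster of resolution 2 for the library labelled knockdown (red) and the control (blue). Bars are levels and lines 95% Poisson intervals; Syt2 is high with Pvalb, Sv2c with Lamp5, and Syt6 in the islands of Calleja-like cluster, where it stands at 875 and 700.5 CPM.

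In dentate granule-like nuclei the main release genes stood close to each other in the 2 libraries. With 2035 nuclei of the library labelled knockdown and 549 of the control, Syt1 was 2584 against 2669 CPM (log2 ratio of knockdown-labelled over control -0.05, exact interval -0.08 to -0.02), Snap25 919.8 against 855.8 CPM (0.10, 0.05 to 0.16) and Syt7 365 against 342 CPM (0.09, 0.01 to 0.18). Sv2a (0.27), Syt4 (0.40) and Sv2c (-0.27) also stayed within 1.5-fold. Of 9 members with at least 50 UMIs over the libraries, 3 were at least 1.5-fold higher in the library labelled knockdown and 0 lower, against a background over 13525 genes of 9.64% higher and 5.67% lower. Syt6 had 28 and 9 UMIs and was too sparse to count.

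The 3 higher genes were Syt2, Sv2b and Syt10. Syt2 stood at 3.57 CPM in the library labelled knockdown and 0.474 CPM in the control (48 and 2 UMIs, log2 ratio 2.91, 0.98 to 6.0), and Sv2b at 21.4 and 4.51 CPM (288 and 19 UMIs, 2.25, 1.58 to 3.003). In oligodendrocyte-like nuclei Syt2 was 8.56 CPM in the library labelled knockdown and 0.720 CPM in the control, and Sv2b was 42.6 and 2.38 CPM. The dentate granule-like levels of both genes in the library labelled knockdown were thus below those of a glial class on the CPM scale. In the control this held for Syt2 and not for Sv2b. Thinned to 1000 UMIs, 1.57% of dentate granule-like and 4.18% of oligodendrocyte-like nuclei of the library labelled knockdown had an Sv2b UMI, against 0.546% and 0.155% in the control. Unthinned, the shares were 11.8% and 8.26% in the library labelled knockdown and 2.37% and 0.536% in the control. Per nucleus, before thinning, an Sv2b UMI was therefore more frequent in the deeper dentate granule-like nuclei (median 6312 UMIs, against 1969 in oligodendrocyte-like ones) in the library labelled knockdown. For Syt2 the shares in that library were 2.31% and 1.58% unthinned, and 0.295% and 0.913% thinned. CA1 markers moved the same way, since 10 of 10 were higher in dentate granule-like nuclei of the library labelled knockdown, with a summed level of 163.5 CPM against 78.5 CPM and none at 0, and their part in these ratios was not tested.

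Syt10 in dentate granule-like nuclei was 72.2 CPM in the library labelled knockdown and 47.2 CPM in the control (970 and 199 UMIs, log2 ratio 0.61, 0.39 to 0.84). It stood at 12.4 CPM in oligodendrocyte-like nuclei of the library labelled knockdown and at 3.10 CPM in control ones, well under the dentate granule-like levels. The call sat near the threshold. The ratio was under 1.5-fold with nuclei thinned to 1000 UMIs (0.05), in nuclei with Xist and no Y-linked UMI (0.34), and with the oligodendrocyte-like level subtracted (0.44). At clustering resolution 2 the class fell into a cluster with 1105 nuclei of the library labelled knockdown and 470 of the control and another with 930 and 79. Syt10 was 58.4 against 43.6 CPM in the first and 84.3 against 60.7 CPM in the second. Sv2c stood at 127 against 120.5 CPM in the first and 66.1 against 91.1 CPM in the second. Syt10 was thus higher in the library labelled knockdown within each cluster, but by less than 1.5-fold in both. Its intervals in the second cluster overlapped (77.7 to 91.4 and 45.6 to 79.2). Sv2c was lower in that library in the second cluster only, where its intervals also overlapped (60.3 to 72.37 and 72.34 to 113). The part of the mix of clusters in the class ratios was not tested.

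**Figure D4:**
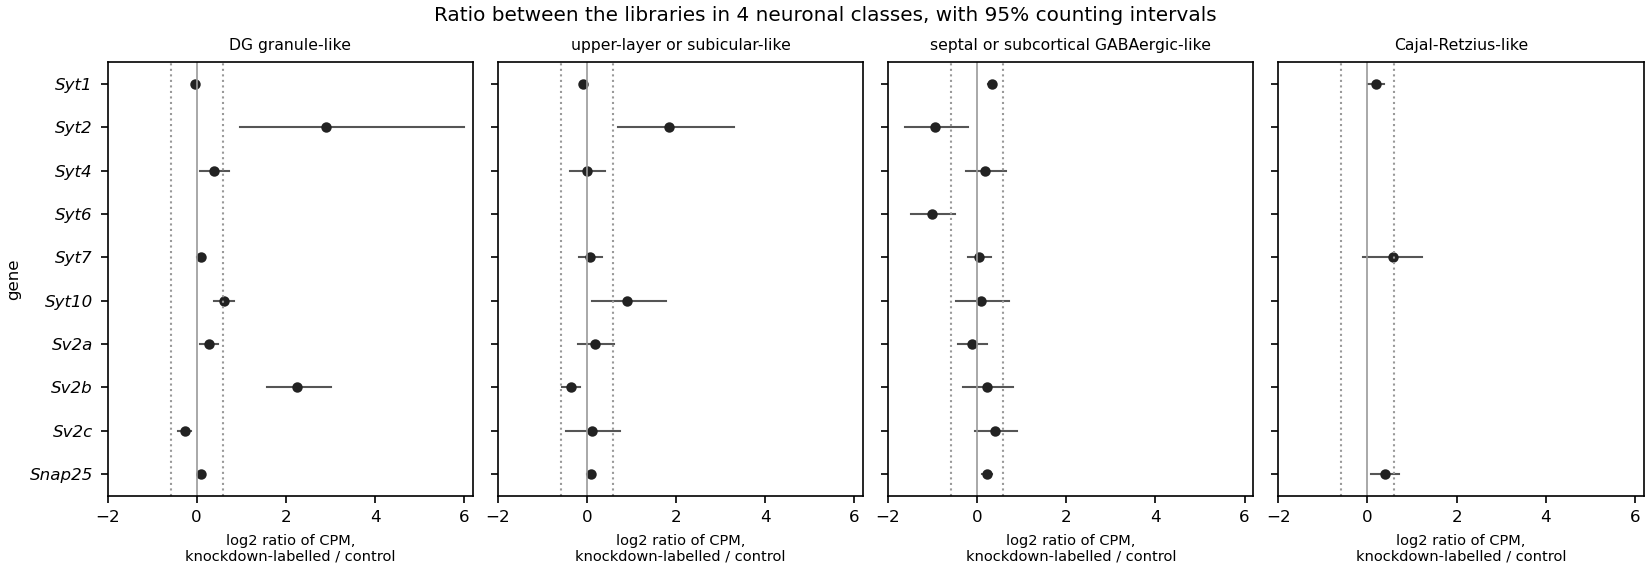
Log2 ratio of CPM, knockdown-labelled library over control, for members with at least 50 UMIs in 4 neuronal classes, with exact 95% counting intervals; dotted lines mark 1.5-fold. Syt1, Syt7 and Snap25 lie within 1.5-fold in all 4 classes, and Syt2 lies to the right in dentate granule-like and upper-layer or subicular-like nuclei and to the left in septal or subcortical GABAergic-like nuclei.

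In upper-layer or subicular-like nuclei (935 and 64) Syt2 and Syt10 were higher in the library labelled knockdown and 7 of 9 measured members lay within 1.5-fold, with 0 lower. The background over 11715 genes was 18.6% higher and 7.8% lower. Syt2 was 30.5 CPM in the library labelled knockdown and 8.58 CPM in the control (247 and 6 UMIs, log2 ratio 1.83, 0.69 to 3.29), and Syt10 was 37.2 and 20.01 CPM (301 and 14 UMIs, 0.89, 0.12 to 1.78). The 6 Syt2 UMIs of the control came from 2 nuclei. Sv2b, the highest of the SV2 genes over this class, was 239 CPM in the library labelled knockdown and 307 CPM in the control (-0.36, -0.56 to -0.15). Syt4 was 86.97 and 87.2 CPM. With libraries centred before clustering, the Syt2 ratio turned to -0.75, so its direction is not fixed by these data, and Syt10 (0.38) was no longer past 1.5-fold. Syt10 was also within 1.5-fold with nuclei thinned to 1000 UMIs (0.14), in nuclei with a Y-linked UMI and no Xist UMI (0.48) and with the oligodendrocyte-like level subtracted (0.55).

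In septal or subcortical GABAergic-like nuclei (1095 and 68) all 10 members were measured, 0 were higher and 2 lower in the library labelled knockdown, against 17.6% higher and 10.9% lower over 12569 genes. The 2 were Syt6, with 27.2 CPM in the library labelled knockdown and 54.8 CPM in the control (257 and 42 UMIs, log2 ratio -1.01, -1.49 to -0.51), and Syt2, with 14.3 and 27.4 CPM (135 and 21 UMIs, -0.94, -1.61 to -0.20). Syt1 was higher by less than 1.5-fold, with 2753 CPM in the library labelled knockdown and 2203 CPM in the control (0.32, 0.25 to 0.39). The control UMIs of Syt6 and Syt2 came from 12 and 7 of its 68 nuclei. Syt6 was uneven within the class. In the library labelled knockdown, 167 nuclei with a Zic1 and no Zfhx3 UMI held 71.4 CPM (57.9 to 86.96), and 339 with Zfhx3 and no Zic1 held 20.1 CPM (15.1 to 26.2). Over the class, Zic1 itself stood at 156 CPM in the library labelled knockdown and at 128 CPM in the control. Syt2 was uneven too. At clustering resolution 2, a cluster with 593 nuclei of the library labelled knockdown and 20 of the control resembled 1 part of the class. Another with 518 and 48 resembled the rest. In the library labelled knockdown they held 4.69 CPM (3.04 to 6.92) and 25.8 CPM (21.2 to 31.0) of Syt2, and 28.9 and 26.9 CPM of Syt6. The part of this mix in the ratios was not tested. Restricted to nuclei with a Y-linked UMI and no Xist UMI (392 and 20 nuclei) the Syt6 ratio was 2.79 on 1 control UMI. In those with Xist and no Y-linked UMI (436 and 32) the Syt2 ratio was 1.03 on 3 control UMIs, so neither call is fixed by these data.

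Cajal-Retzius-like nuclei (67 and 162), a transient cell type of the developing marginal zone, were the neuronal class with more nuclei in the control. Of its 3 measured members 0 were higher and 0 lower, against 9.89% higher and 12.8% lower over 2921 genes. Syt1 was 1993 CPM in the library labelled knockdown and 1738 CPM in the control (log2 ratio 0.20, 0.02 to 0.38), Snap25 723 and 550.0 CPM (0.39, 0.08 to 0.70) and Syt7 175 and 117 CPM (0.58, -0.09 to 1.23). The intervals of Syt1 and Snap25 lay above 0 while their sizes stayed under 1.5-fold, and that of Syt7 held 0.

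In glia most members were higher in the library labelled knockdown, and the exceptions were Sv2a in oligodendrocyte-like nuclei and Syt6 in microglia-like and oligodendrocyte precursor (OPC)-like nuclei. Of measured members, 8 of 9 were at least 1.5-fold higher in oligodendrocyte-like nuclei (background 24.3% higher and 7.86% lower), 5 of 5 in astrocyte-like nuclei (14.8% and 6.38%), 4 of 5 in microglia-like nuclei (15.1% and 13%), 5 of 6 in OPC-like nuclei (11.3% and 7.29%) and 2 of 2 in fibroblast-like nuclei (11.7% and 14.7%). Among these 5 classes only OPC-like nuclei had a member called lower, Syt6. For Syt1 the level was 590.0 CPM in oligodendrocyte-like nuclei of the library labelled knockdown and 54.5 CPM in those of the control, and over the 5 classes 474 to 719 CPM and 41.7 to 94.8 CPM. Syt1 was low in all 5 classes of the control and several times higher in all 5 of the library labelled knockdown, where named neurons were the larger share of nuclei. The CA1 markers moved with it, since in oligodendrocyte-like nuclei 10 of 10 were higher in the library labelled knockdown, with a summed level of 290.5 CPM against 136 CPM and none at 0. Of the other neuronal lists examined, 11 of 13 MGE interneuron markers and 7 of 11 DG granule markers were higher there. Their summed levels were lower in the library labelled knockdown, at 1311 against 1654 CPM and 2230 against 3223 CPM. The part of free neuronal RNA in these ratios was not tested.

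Set against the level over all nuclei of the same library, Syt1 in the 5 classes stood at 17.0% to 25.8% in the library labelled knockdown and at 6.52% to 14.8% in the control. Sv2a in oligodendrocyte-like nuclei stood apart from that, at 138% and 132.5%. It was 131 CPM (121 to 142) in the library labelled knockdown and 103 CPM (97.97 to 107) in the control, and the log2 ratio of 0.35 (0.22 to 0.49) was within 1.5-fold. The level in oligodendrocyte-like nuclei of the control was higher than in its dentate granule-like nuclei (63.3 CPM). Thinned to 1000 UMIs, 12.4% of oligodendrocyte-like nuclei of the library labelled knockdown and 9.64% of those of the control had an Sv2a UMI (22.7% and 21.5% unthinned), against 4.95% and 1.80% of astrocyte-like nuclei (13.4% and 6.73% unthinned). Oligodendrocyte-like nuclei were held by different clusters in the libraries, since cluster 2 held 94.4% of those of the library labelled knockdown and 0.790% of those of the control.

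Syt6 in microglia-like nuclei was 38.9 CPM (23.0 to 61.4, 18 UMIs) in the library labelled knockdown and 40.4 CPM (32.4 to 49.9, 87 UMIs) in the control. The log2 ratio was -0.06 (-0.88 to 0.69), and the levels were 276% and 310.4% of that over all nuclei of the library. Oligodendrocyte-like nuclei held 3.83 and 1.38 CPM of it. OPC-like nuclei held 13.6 CPM in the library labelled knockdown and 20.5 CPM in the control (14 and 55 UMIs, log2 ratio -0.59, -1.55 to 0.28). That ratio passed 1.5-fold and its counting interval held 0, so the difference was not detectable at this depth. Whether the microglia-like tags come from Syt6 itself or from an overlapping transcript was not tested.

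Snap25 in OPC-like nuclei was the other exception among the glial classes of the control. It stood at 491.5 CPM in the library labelled knockdown and at 235 CPM (217 to 254, 631 UMIs) in the control, where the other 4 classes held 26.95 to 61.2 CPM. Thinned to 1000 UMIs, 41.99% of OPC-like nuclei of the library labelled knockdown and 21.3% of those of the control had a Snap25 UMI, against 33.1% and 3.41% of oligodendrocyte-like nuclei. Unthinned, the shares were 77.8% and 51.4% of OPC-like and 52.6% and 7.70% of oligodendrocyte-like nuclei. Median depths were 3032 and 3947 UMIs in OPC-like nuclei and 1969 and 2321 UMIs in oligodendrocyte-like nuclei. Syt1 did not share this, at 57.3 CPM in OPC-like nuclei of the control and 54.5 CPM in oligodendrocyte-like ones.

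**Figure D5:**
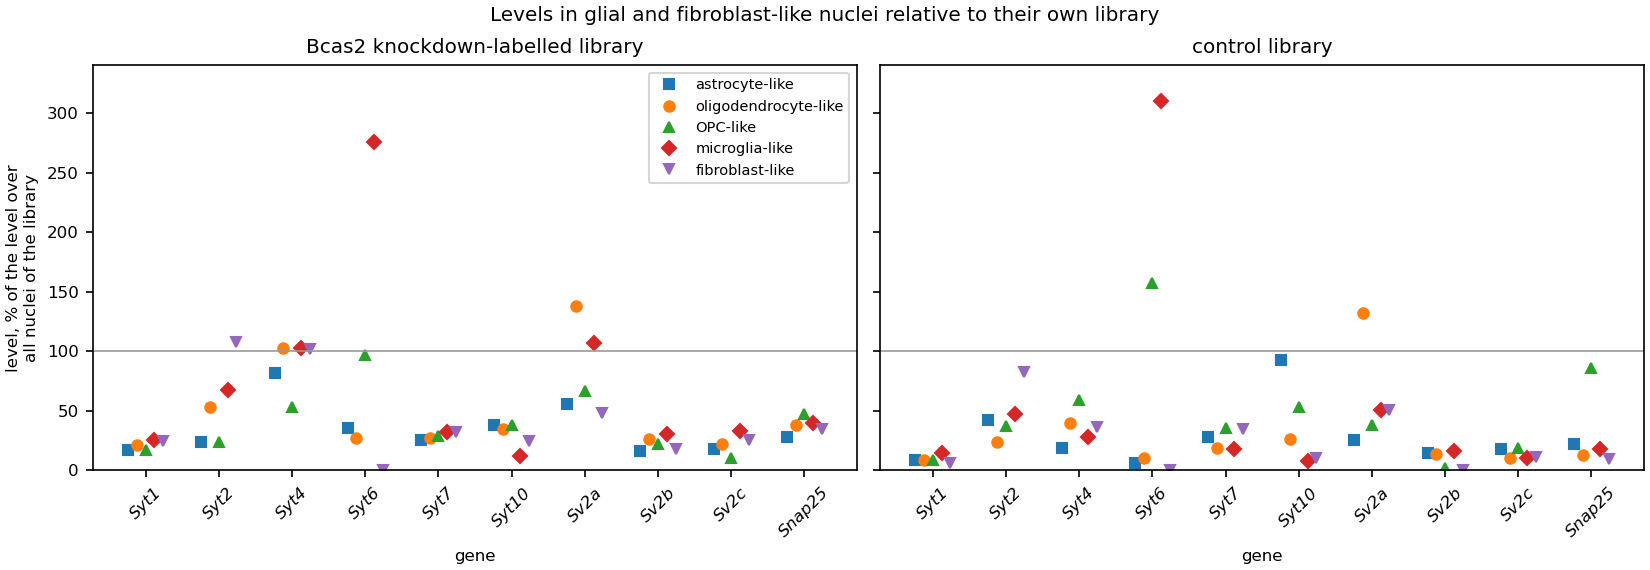
Level of each gene in 5 non-neuronal classes as a percentage of its level over all nuclei of the same library, knockdown-labelled library left and control right; the line marks 100%. Syt6 in microglia-like nuclei (276% and 310.4%) and Sv2a in oligodendrocyte-like nuclei (138% and 132.5%) lie above 100% in both libraries, while Syt1 lies at or under 25.8% in all 10 cases.

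Further genes of the release machinery came from 5 lists holding 90 symbols, of which 89 were found. In dentate granule-like nuclei 5 of 84 measured genes passed 1.5-fold upwards and 1 downwards, against the backgrounds of 9.64% and 5.67%, and their median log2 ratio was -0.002 beside 0.05 over all measured genes. None of the 21 SNARE proteins and regulators or of the 18 endocytosis genes passed 1.5-fold there. The highest ratios were those of Rab3b, a vesicle GTPase gene (1.28, 93 and 12 UMIs), Syngr3, a synaptogyrin (0.88), and Atp6v0c, a proton pump subunit gene (0.79). Atp6v0c stood at 159 CPM in the library labelled knockdown and 92.5 CPM in the control. The lowest were those of the synapsin gene Syn3 (-0.59, 187 against 282 CPM) and the endocytosis genes Picalm (-0.49) and Bin1 (-0.46), of which only Syn3 passed 1.5-fold.

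In upper-layer or subicular-like nuclei 4 of 84 were higher and 2 lower, with a median of 0.02 beside 0.09 over all genes, of which 18.6% were higher and 7.8% lower. Cplx1, a complexin that clamps SNARE complexes, was at 30.0 CPM in the library labelled knockdown and 12.9 CPM in the control (1.22). Atp6v0c (0.94) and the active zone gene Rims4 (0.72) followed, and the lowest were Syt12 (-0.63), the syntaxin gene Stx1a (-0.61) and Bin1 (-0.52, within 1.5-fold). In septal or subcortical GABAergic-like nuclei 5 of 85 were higher and 10 lower, with a median of 0.01 beside 0.06 over all genes (17.6% higher, 10.9% lower). Doc2b (1.75, 207 and 5 UMIs), Vamp1 (1.08) and Ap2b1 (0.88) were highest there. Syt9, another fast sensor, stood at 18.8 CPM in the library labelled knockdown and 65.3 CPM in the control (-1.79). The priming gene Unc13c stood at 105 and 359 CPM (-1.77), and Itsn2 (-0.84) was the next lowest. In Cajal-Retzius-like nuclei 6 of 43 were higher and 1 lower, against 9.89% and 12.8% of all genes. Of the genes named by rank there, the active zone scaffold gene Pclo (0.61) was past 1.5-fold, while Itsn1 (0.49), Ap2b1 (0.35), Bin1 (-0.57) and Erc1 (-0.44) were within it.

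In oligodendrocyte-like nuclei 50 of 83 measured genes were higher and 2 lower with a median of 0.81, beside 0.14 over all genes, of which 24.3% were higher and 7.86% lower. In astrocyte-like nuclei 31 of 67 were higher and 0 lower (all genes 14.8% and 6.38%). Microglia-like nuclei had 21 higher and 4 lower of 52 (all genes 15.1% and 13%), and OPC-like nuclei 14 and 4 of 71 (11.3% and 7.29%). Fibroblast-like nuclei had 6 and 2 of 39 (11.7% and 14.7%). Not every list was higher, since the endocytosis genes had a median of -0.27 in microglia-like and -0.11 in fibroblast-like nuclei. Within oligodendrocyte-like nuclei, 19 of 22 active zone and priming genes were higher, against 5 of 17 endocytosis genes. Endocytosis genes have uses in all cells, and their median there was 0.05, against 1.90 for the active zone list.

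Across 14 classes of the library labelled knockdown the genes most like each member were ranked by Pearson's r of log2(CPM + 5), a description in which classes share a library. For Syt1 they were Clvs1 (r = 0.98, and 0.95 over 12 classes of the control), Gm44562 (0.98 and 0.96) and A230103L15Rik (0.98 and 0.96), and for Snap25 Pi4ka (0.97 and 0.82), Hook1 (0.96 and 0.95) and Syn1 (0.96 and 0.95). For Syt7 they were Map1b (0.95 and 0.63), Clvs2 (0.95 and 0.94) and Celf3 (0.94 and 0.91). Sv2b was most like Gm49678 (0.89 and 0.91), Lingo1 (0.89 and 0.82) and Neurod6 (0.88 and 0.80), and Sv2c most like Lrrc3b (0.89 and 0.88), Cntnap5a (0.88 and 0.96) and Rasgrf2 (0.85 and 0.69). For Syt10 they were Mrtfb (0.89 and 0.47), Vwa3a (0.89 and 0.73) and Nek10 (0.82 and 0.91). For Syt2, Syt4, Syt6 and Sv2a the highest values were 0.76 (Lhx6), 0.76 (Man1a), 0.82 (Gm49980) and 0.85 (Ncapd3), and these 4 stood at 0.01, -0.08, 0.54 and 0.55 in the control. Among the members themselves, Syt1 and Snap25 were alike in both libraries (0.94 and 0.93), while Sv2b and Sv2c had -0.36 over the knockdown-labelled classes and 0.59 over those of the control, where CA1-like and CA3 or CA2-like nuclei were too few to count. The order of 9 classes compared between the libraries had a Spearman rho of 0.98 for Syt10, 0.90 for Snap25, 0.88 for Syt2, 0.85 for Syt7 and 0.82 for Syt1 and Syt6. It was 0.62 for Sv2a, 0.58 for Sv2b, 0.55 for Sv2c and 0.25 for Syt4.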

How the data were processed

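Nuclei of mouse hippocampus were measured in 2 droplet libraries, 1 per group. The authors deposited raw UMI count matrices from Cell Ranger 9.0.1 (version per the file headers), and the submitters' processing notes also name bcl2fastq 5.0.1, Seurat 4.1.0 and GRCm39. Barcodes were kept from 500 genes and 800 UMIs upwards where mitochondrial UMIs stayed below 5%. Scrublet marked 1046 doublets (7.789%) in the library labelled knockdown by its automatic threshold. In the control that threshold marked 2 barcodes (0.01596%), so the expected rate was used (1332, 10.63%). Nuclei of both libraries were clustered together with scanpy 1.11.5 on 2000 variable genes, without the 10 genes described, Bcas2, mitochondrial or sex-linked genes (30 components, 15 neighbours, Leiden resolution 1), giving 31 clusters. Clusters were named from lists of 253 marker symbols for 24 classes, by a rule set after a first clustering was seen.

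UMIs were summed per class and library and given as CPM with exact 95% Poisson intervals. Ratios have exact conditional binomial intervals, and shares were also computed after thinning to 1000 UMIs per nucleus. All intervals cover counting error only, and treat UMIs of the same nucleus as independent. A ratio was called past 1.5-fold among genes with at least 50 UMIs over both libraries, in classes with at least 50 nuclei in each. Release genes were named per neuronal class as the 3 highest and 3 lowest ratios among those with at least 100 UMIs (1 of these genes is not reported here), and genes most like a member as the 3 highest r among genes reaching 50 CPM in a class. Finer clusters and marker divisions were chosen after values were seen. The members and lists were chosen with earlier results of these data known. Alternatives covered nuclei filters, doublets, clustering, centring, thinning, sex-marker nuclei, scaling with edgeR 4.0.16 (TMM), thresholds and subtraction of the oligodendrocyte-like level. Promoter windows came from a RefSeq table that matched 7 of the 10 genes, in a build other than that of the counts, and no coordinates were converted. Overlapping genes on either strand can share tags with Syt1, Syt2, Syt6, Syt7, Sv2b and Sv2c.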

Additional observations from a re-analysis of the deposited data

Results flagged for a closer look

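The ratio of Syt2 had opposite signs in different neuronal classes. Its log2 ratio of the library labelled knockdown over the control was 2.91 in dentate granule-like nuclei and 1.83 in upper-layer or subicular-like nuclei, and -0.94 in septal or subcortical GABAergic-like nuclei. With 1 library per group the difference between classes was not tested. The control held 2, 6 and 21 Syt2 UMIs in these classes, in 2, 2 and 7 nuclei. The dentate granule-like level in the library labelled knockdown (3.57 CPM) lay under that of oligodendrocyte-like nuclei (8.56 CPM) on the CPM scale. Before thinning, 2.31% of those dentate granule-like and 1.58% of those oligodendrocyte-like nuclei had a Syt2 UMI. The upper-layer or subicular-like sign turned with libraries centred before clustering. The septal or subcortical GABAergic-like sign turned in nuclei with Xist and no Y-linked UMI. Syt2 was also uneven within that class, at 4.69 and 25.8 CPM in 2 clusters of resolution 2 (library labelled knockdown).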

How the results depend on the processing

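No paired analysis was possible because each group is 1 library with no replicate number. Counts below are genes past 1.5-fold in the library labelled knockdown, of members unless release genes are named. With nuclei thinned to 1000 UMIs, members higher were 0 in dentate granule-like, 1 in upper-layer or subicular-like, 2 in astrocyte-like and 2 in OPC-like nuclei (0 lower there). Release genes lower were then 2 in dentate granule-like nuclei, and higher and lower 11 and 6 in upper-layer or subicular-like, 12 and 3 in astrocyte-like, and 2 and 4 in fibroblast-like nuclei. Release genes higher were 10 in septal or subcortical GABAergic-like, 0 in Cajal-Retzius-like, 13 in microglia-like and 5 in OPC-like nuclei, and 1 was lower in oligodendrocyte-like nuclei. With libraries centred, upper-layer or subicular-like nuclei had 0 higher and 2 lower (Syt2 -0.75) and 4 release genes lower. Release genes were then 12 higher in fibroblast-like and 2 lower in microglia-like nuclei, and OPC-like nuclei had 0 lower. In nuclei with a Y-linked UMI and no Xist UMI, members higher and lower were 1 and 1 in upper-layer or subicular-like, 3 and 0 in septal or subcortical GABAergic-like (Syt6 2.79) and 2 and 0 in OPC-like nuclei. Members higher were 1 in Cajal-Retzius-like, 1 in fibroblast-like, 2 in microglia-like and 5 in oligodendrocyte-like nuclei. With Xist and no Y-linked UMI they were 1 in dentate granule-like, 1 in upper-layer or subicular-like, 2 in astrocyte-like and 5 in oligodendrocyte-like nuclei. There septal or subcortical GABAergic-like nuclei had 1 higher and 1 lower (Syt2 1.03), and OPC-like nuclei 3 and 0. With the oligodendrocyte-like level subtracted, members higher and lower were 0 and 1 in dentate granule-like and 1 and 2 in upper-layer or subicular-like nuclei, and 4 and 1 were lower in septal or subcortical GABAergic-like and Cajal-Retzius-like nuclei. With doublets kept, 1 was higher in dentate granule-like, 1 in Cajal-Retzius-like and 8 in astrocyte-like nuclei, and 0 lower in OPC-like nuclei. The looser filter and resolution 0.5 also gave 0 lower there, and the stricter filter and TMM gave 1 higher in Cajal-Retzius-like nuclei. Resolution 2 gave 2 higher there, with 16 release genes higher and 8 lower. With mean CPM over nuclei, release genes lower were 0 in dentate granule-like, 5 in upper-layer or subicular-like and 4 in fibroblast-like nuclei, and 1 member was lower in septal or subcortical GABAergic-like nuclei. At 2-fold, 1 was higher in upper-layer or subicular-like nuclei, 1 lower in septal or subcortical GABAergic-like and 0 lower in OPC-like nuclei. With no UMI minimum, members higher were 4 in Cajal-Retzius-like, 9 in astrocyte-like, 8 in fibroblast-like, 9 in microglia-like and 8 in OPC-like nuclei. At 200 UMIs they were 2, 1, 2, 5 and 2 in astrocyte-like, fibroblast-like, microglia-like, oligodendrocyte-like and OPC-like nuclei, with 1 lower in septal or subcortical GABAergic-like and 0 in OPC-like nuclei. The cause of these changes was not tested, apart from the smaller numbers of nuclei, UMIs or genes that the alternatives themselves leave. The upper-layer or subicular-like class gave no value under resolution 2, the looser filter or doublets kept, and equal cluster weights applied to 3 classes only.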
